A study of Mus musculus with 12 samples.

Results

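The transcripts described here are those of 9 cytokine genes of T cells, chosen by symbol: *Ifng*, *Tnf*, *Lta*, *Ltb*, *Tgfb1*, *Il16*, *Il2*, *Xcl1* and *Ccl4*. All 9 are among the 12809 genes listed for CD4 and CD8 T cells sorted from lymph nodes (LN) of female B6 and FlipFlop mice, without stimulation. FlipFlop mice carry *Cd4* gene loci altered to encode CD8αβ.1 and *Cd8a* gene loci altered to encode CD4. The *Cd4* alteration was made in B6 embryonic stem cells and the *Cd8a* alteration in a 129R1 line, and genes of strain 129 remain in FlipFlop mice. The 4 groups of 3 libraries were CD4 and CD8 T cells of C57BL/6 (B6) mice at 10 weeks, which carry no altered allele, and CD4 and CD8 T cells of FlipFlop mice at 14 weeks, which carry both alterations on both chromosomes, so age and strain cannot be told apart. The labels do not say that the 3 libraries of a group came from separate mice, so p-values measure only the spread between these libraries, which may be technical. Values are CPM, read counts relative to library size, scaled by TMM, a factor that corrects a library's size for its composition.

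Cytokine genes of T cells are held at low levels in resting cells and are induced within hours of T cell receptor triggering, through the factors NFAT, NF-κB and AP-1. Many of their mRNAs carry AU-rich elements, repeats of ATTTA in the 3′ untranslated region, at which ZFP36 proteins speed decay. IL-2 is the growth factor of activated T cells, interferon-γ (*Ifng*) activates macrophages, and TNF and lymphotoxin-α (*Lta*) are close relatives in the TNF family. Lymphotoxin-β (*Ltb*) joins lymphotoxin-α in a membrane complex that maintains lymphoid tissue, TGF-β1 is a latent suppressive cytokine, and IL-16 is cut from a precursor and attracts CD4+ cells. XCL1 draws in the dendritic cells that carry XCR1, CCL4 is a chemokine of inflammation, and both are known as products of CD8 T cells and NK cells.

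Sequence features of the 9 genes were read from the reference, to be set beside their levels. The 3′ windows of 30 bases with the most ATTTA repeats in *Tnf*, *Ifng* and *Il2* are shown because these are the 3 members with at least 3 repeats in 30 bases, with the repeats in capitals.
Tnf 3′ window, GRCm38 chr17:35199677-35199706 (- strand): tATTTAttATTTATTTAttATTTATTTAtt
Ifng 3′ window, GRCm38 chr10:118445333-118445362 (+ strand): ctATTTAttaatATTTAaaactATTTAtat
Il2 3′ window, GRCm38 chr3:37121039-37121068 (- strand): tATTTATTTAaatATTTAactttaATTTAt
The window of *Tnf* holds 5 repeats, that of *Il2* 4 and that of *Ifng* 3. Among 11312 listed genes with a 3′ untranslated region, 2.38% hold at least 3 in 30 bases. The densest window of *Lta* holds 2 and those of *Tgfb1*, *Xcl1* and *Ccl4* hold 1, while *Ltb* and *Il16* hold no ATTTA in this region. A match to these letters is a description and not a site shown to be bound.

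Promoter windows, from 250 bases before to 50 bases after the RefSeq start, were found for 8 of the 9 members on GRCm38.p6. They are shown for *Tnf*, *Lta* and *Ltb*, which are neighbours with different patterns across the groups, and for *Xcl1*, whose B6 difference and lineage effect were the largest in size among the 8 tested members. Capitals mark TATAAA on the sense strand in *Tnf* and *Lta*, GGG and TTTCC set 2 bases apart (NF-κB, either strand) in *Ltb*, and TGTGGT (Runx) and GGTGTGA (a T-box element) on either strand in *Xcl1*.
Tnf promoter, GRCm38 chr17:35201958-35202257 (- strand): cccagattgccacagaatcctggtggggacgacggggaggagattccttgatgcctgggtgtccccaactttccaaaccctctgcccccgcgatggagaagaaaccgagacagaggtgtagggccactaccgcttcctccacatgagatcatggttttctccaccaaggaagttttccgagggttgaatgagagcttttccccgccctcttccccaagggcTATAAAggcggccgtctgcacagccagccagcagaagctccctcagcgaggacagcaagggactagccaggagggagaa
Lta promoter, GRCm38 chr17:35205302-35205601 (- strand): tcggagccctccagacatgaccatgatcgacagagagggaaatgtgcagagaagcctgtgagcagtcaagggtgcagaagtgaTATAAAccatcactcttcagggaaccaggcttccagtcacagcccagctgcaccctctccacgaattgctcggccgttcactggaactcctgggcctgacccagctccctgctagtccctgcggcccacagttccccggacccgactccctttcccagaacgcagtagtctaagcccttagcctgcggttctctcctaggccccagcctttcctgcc
Ltb promoter, GRCm38 chr17:35194257-35194556 (+ strand): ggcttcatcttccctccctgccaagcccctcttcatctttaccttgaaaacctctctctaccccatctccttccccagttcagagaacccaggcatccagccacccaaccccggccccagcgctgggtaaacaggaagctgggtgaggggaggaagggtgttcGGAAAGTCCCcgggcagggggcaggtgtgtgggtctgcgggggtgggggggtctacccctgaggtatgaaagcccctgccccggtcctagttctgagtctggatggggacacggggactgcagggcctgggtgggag
Xcl1 promoter, GRCm38 chr1:164935473-164935772 (- strand): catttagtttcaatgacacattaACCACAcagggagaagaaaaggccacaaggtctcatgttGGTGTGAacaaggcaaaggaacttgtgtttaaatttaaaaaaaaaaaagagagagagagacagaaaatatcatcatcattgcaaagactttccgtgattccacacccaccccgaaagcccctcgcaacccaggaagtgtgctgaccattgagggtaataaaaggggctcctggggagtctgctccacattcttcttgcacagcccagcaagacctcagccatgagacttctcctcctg
TATAAA starts 29 bases before the start in *Tnf*, 30 before in *Ifng* and 31 before in *Il2*, but 167 before in *Lta*, and 8.32% of 32851 promoter windows hold it somewhere. The match in *Ltb* lies 87 bases before the start, on the opposite strand, and overlaps a GGAAA (NFAT core). The NF-κB motif is held by 1.63% of windows, TGTGGT by 16.8%, GGTGTGA by 3.98% and GGAAA by 61.3%. *Il16* has 3 windows, of which 1 holds the NF-κB motif, 1 TGTGGT and 1 TGANTCA (AP-1), which 7.81% of windows hold. In *Tgfb1* none of the 6 motifs was present in the window.

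On GRCm38, *Ltb*, *Tnf* and *Lta* lie side by side within 10913 bases of chromosome 17, with *Ltb* at 35194439 to 35196320 on the plus strand, *Tnf* at 35199381 to 35202007 and *Lta* at 35203165 to 35205351, both on the minus strand. The gap between *Ltb* and *Tnf* is 3060 bases and that between *Tnf* and *Lta* 1157 bases. The other members lie apart, *Ifng* on chromosome 10 (118441046 to 118445892), *Tgfb1* and *Il16* on chromosome 7 (25687002 to 25705077 and 83642825 to 83745726), *Il2* on chromosome 3 (37120523 to 37125959), *Xcl1* on chromosome 1 (164931644 to 164935527) and *Ccl4* on chromosome 11 (83662584 to 83664683). *Il16* shares 1202 exon bases with *Stard5* on the opposite strand, a gene listed at 13.7 to 27.6 CPM, *Xcl1* shares 98 with Gm20743 on the opposite strand, and *Ifng* shares 336 with Gm49751 on the same strand. The counting is not stated to use strand, so reads in these bases cannot be told apart.

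The libraries held 26570300 to 33115700 reads on listed genes, so that 3 reads, taken as the floor, were worth 0.0857 to 0.120 CPM. *Cd4* was at 961 to 1090 CPM in B6 CD4 and 637 to 719 CPM in FlipFlop CD4 libraries, and at 0.600 to 2.40 CPM in B6 CD8 and 40.9 to 43.6 CPM in FlipFlop CD8 libraries. *Cd8a* was at 1472 to 1500 CPM in B6 CD8 and 138 to 159 CPM in FlipFlop CD8 libraries, and under 2 CPM in both CD4 groups. *Cd8b1*, which encodes the other chain of CD8, went against the coreceptor in FlipFlop mice, with 1639 to 1962 CPM in CD4 and 125 to 151 CPM in CD8 libraries, beside 20.7 to 28.1 CPM in CD4 and 1839 to 1924 CPM in CD8 libraries of B6 mice. The 8 T cell markers summed to 4890 to 7250 CPM in every library and the 6 B cell markers to 38.5 to 73.0 CPM, and each list had 1 gene higher and 1 lower for the lineage effect, that of FlipFlop CD8 and B6 CD4 over the other 2 groups. The 4 naive T cell markers summed to 3160 to 4323 CPM, with 2 of them lower for that effect, which was called for 39.3% of all tested genes. In bulk RNA, fewer cells of a type and less RNA per cell cannot be told apart.

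Per kilobase of exon, the mean over the 12 libraries was highest for *Ltb*, at 538 CPM per kb, followed by *Il16* at 63.0 and *Tgfb1* at 29.5 CPM per kb. *Lta* (12.7), *Xcl1* (10.4), *Tnf* (6.62) and *Ccl4* (2.36 CPM per kb) came next, and *Ifng* (0.890) and *Il2* (0.421 CPM per kb) were lowest. The level of *Ltb* was above that of 98.8% of listed genes and the level of *Il2* above that of 5.99%. Thus the 9 transcripts fall into 3 abundant ones, present at over 100 CPM in every library, 2 at intermediate levels (*Tnf* and *Lta*, 4.92 to 26.8 CPM), and 4 that came near the floor in at least 1 group.

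Near the floor, taken as a group mean under 1 CPM or at most 3 reads, were *Il2* in all 4 groups, *Ifng* in CD8 T cells of B6 and CD4 T cells of FlipFlop mice, and *Ccl4* and *Xcl1* in B6 CD4 T cells. Only 3 of the 108 member values were at or under 3 reads: *Ifng* in FlipFlop CD4 replicates 2 and 3, with 3 reads and 1 read, and *Ccl4* in B6 CD4 replicate 2, with 3 reads. None was at 0. *Il2* rested on 3.11 to 33.8 reads per library, none of them a whole number. The floor covers counting error only, since the reads carry no molecular identifiers.

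**Figure D1:**
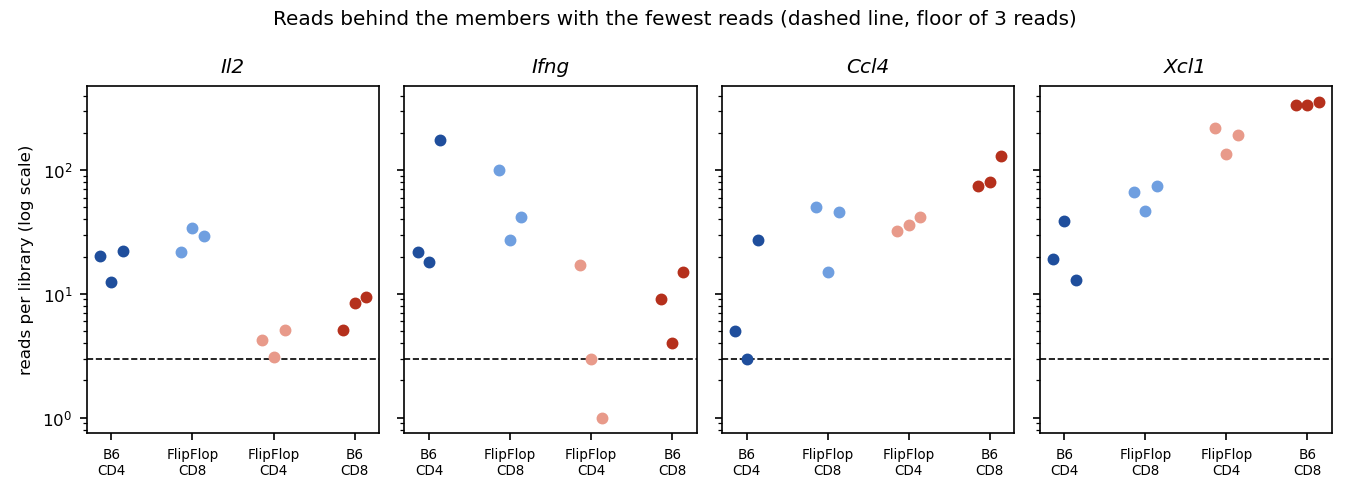
Reads per library (log scale) for *Il2*, *Ifng*, *Ccl4* and *Xcl1* in the 4 groups, with 1 point per library and the floor of 3 reads as a dashed line. *Ifng* reaches the floor in 2 FlipFlop CD4 libraries and *Ccl4* in 1 B6 CD4 library, and *Il2* stays under 34 reads in all 12.

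The comparisons ask which transcripts follow the coreceptor on the cell and which follow the gene locus that encodes it. Each difference is one of log2(CPM + 0.5), a scale that makes the change of low genes look smaller, and was tested with limma over the 11595 genes that reached 1 CPM in 3 or more libraries, with Benjamini-Hochberg adjustment over all of them. A gene was called at an adjusted p under 0.05. The lineage effect is the mean of B6 CD4 and FlipFlop CD8 T cells (coreceptor encoded in *Cd4*) minus the mean of FlipFlop CD4 and B6 CD8 T cells (coreceptor encoded in *Cd8a*). Its test is also that of whether the CD4 minus CD8 difference itself differs between strains, and the coreceptor effect is the mean of both CD4 groups minus that of both CD8 groups. *Il2* did not pass the filter, as only 1 of its 12 values reached 1 CPM, and *Ifng* passed it with exactly 3 libraries, all of them B6 CD4 or FlipFlop CD8, so *Ifng* was tested only because of the groups in which it is high.

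In B6 mice 6 of the 8 tested members were called between CD4 and CD8 T cells, beside 25.4% of all tested genes. Of these 4 were higher in CD4 (14.6% of genes) and 2 lower (10.8% of genes). In FlipFlop mice 3 of 8 were called, beside 31.3% of genes, so the share of members was near the background there, with 1 higher in CD4 (15.3% of genes) and 2 lower (16% of genes). With a replicate block 4 of 8 members and 4221 of 11595 genes were called there. Without the TMM factor 6 of 8 members and 3767 of 11611 genes were called, where the median difference of all genes was −0.14. For the lineage effect 7 of 8 were called, beside 39.3% of genes, with 5 higher (19.9% of genes) and 2 lower (19.4% of genes). The 7 include *Ifng*, which was tested only because 3 libraries of B6 CD4 and FlipFlop CD8 T cells, the groups in which it was high, reached 1 CPM. For the coreceptor effect 2 of 8 were called, beside 5.49% of genes, both lower in the CD4 groups (3.78% of genes). Across strains, 2 of 8 were called for FlipFlop CD8 minus B6 CD4, beside 27.6% of genes, and 2 of 8 for FlipFlop CD4 minus B6 CD8, beside 7.92% of genes. With more than 5-fold and an unadjusted p under 0.0001, limits that 1.55% of genes passed between the B6 groups and 1.61% for the lineage effect, *Xcl1* was the member that passed, in both. The libraries of the 2 groups did not overlap for 7 members between the B6 groups (37.8% of all genes) and for 4 between the FlipFlop groups (47.2% of all genes). Between the 6 libraries on either side of the lineage effect 4 members did not overlap (16.9% of all genes). The median log2 difference of the 8 members, *Ifng* included, was 0.30 between the B6 groups and −0.10 between the FlipFlop groups, beside −0.0038 and 0.04 over all tested genes.

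**Figure D2:**
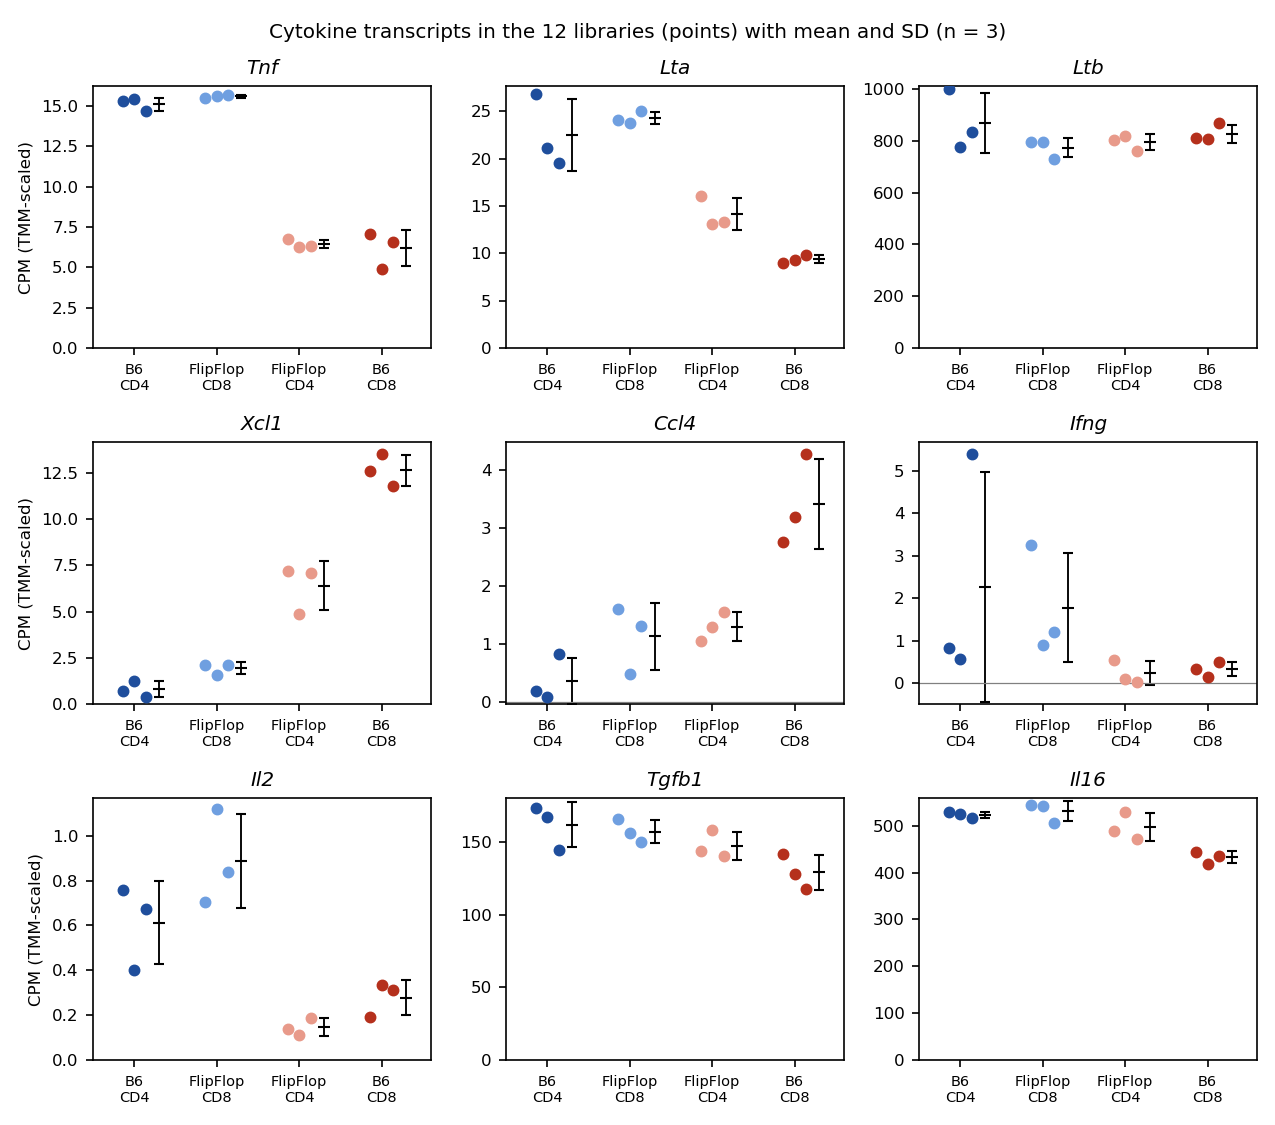
CPM (TMM-scaled) of the 9 transcripts, 1 point per library in the order of replicate numbers, with mean and SD (n = 3) beside the points. Groups whose coreceptor is encoded in *Cd4* (B6 CD4, FlipFlop CD8) stand on the left of each panel, and *Tnf* is at 14.7 to 15.7 CPM there and at 4.92 to 7.08 CPM in the other 2 groups.

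*Tnf* was higher in CD4 T cells of B6 and CD8 T cells of FlipFlop mice than in the other 2 groups, and these did not overlap. The B6 CD4 libraries held 15.3, 15.4 and 14.7 CPM of *Tnf* and the FlipFlop CD8 libraries 15.5, 15.6 and 15.7 CPM. The B6 CD8 libraries held 7.08, 4.92 and 6.59 CPM and the FlipFlop CD4 libraries 6.73, 6.27 and 6.32 CPM. The 6 high libraries thus ran from 14.7 to 15.7 CPM and the 6 low ones from 4.92 to 7.08 CPM. In B6 mice CD4 T cells had 1.24 ± 0.11 (SE) more on the log2 scale (limma adjusted p = 4.72e-06), and in FlipFlop mice −1.22 ± 0.11 (limma adjusted p = 4.39e-06). The lineage effect was 1.23 (limma adjusted p = 1.07e-07, 95% interval 1.05 to 1.40), a 2.34-fold difference. Groups on the same side were not called as different: FlipFlop CD8 minus B6 CD4 was 0.04 (95% interval −0.20 to 0.29) and FlipFlop CD4 minus B6 CD8 0.07 (95% interval −0.18 to 0.31).

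*Lta*, the neighbour of *Tnf*, was highest in the same groups but its order had 3 steps instead of 2. It was at 26.8, 21.2 and 19.5 CPM in B6 CD4, and at 24.1, 23.8 and 25.0 CPM in FlipFlop CD8 libraries. It was at 16.1, 13.1 and 13.3 CPM in FlipFlop CD4, and at 9.03, 9.28 and 9.84 CPM in B6 CD8 libraries. FlipFlop CD4 T cells therefore lay between B6 CD8 and the 2 high groups, without overlap. The difference was 1.21 ± 0.11 in B6 mice (limma adjusted p = 7.15e-06) and −0.76 ± 0.11 in FlipFlop mice (limma adjusted p = 2.50e-04), with a lineage effect of 0.99 (limma adjusted p = 9.22e-07). FlipFlop CD4 exceeded B6 CD8 T cells by 0.56 ± 0.11 (limma adjusted p = 0.0095), while FlipFlop CD8 and B6 CD4 were not called as different (0.12, 95% interval −0.13 to 0.37). The coreceptor effect on *Lta* was 0.22 (limma adjusted p = 0.160, not called).

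*Ltb*, the third gene of this locus, was called in none of the 6 comparisons. Its libraries ran from 777 to 998 CPM in B6 CD4, 805 to 867 CPM in B6 CD8, 760 to 820 CPM in FlipFlop CD4 and 730 to 797 CPM in FlipFlop CD8 T cells, and neighbours in the order of group means were not called as different. The lineage effect was 0.01, with a 95% interval of −0.13 to 0.15, which does not reach the values of *Tnf* and *Lta*. Across the 12 libraries, which share the groups, *Tnf* and *Lta* had a Pearson r of 0.91, and *Ltb* had r of −0.20 to 0.13 with the other 8 members. In each of the 6 comparisons its sign changed with the values left without the TMM factor or with single libraries left out.

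*Xcl1* had the largest B6 difference and lineage effect of the 8 tested transcripts, with 4 distinct levels. B6 CD8 libraries held 12.6, 13.5 and 11.8 CPM and FlipFlop CD4 libraries 7.22, 4.89 and 7.10 CPM of *Xcl1*. FlipFlop CD8 libraries held 2.12, 1.55 and 2.11 CPM and B6 CD4 libraries 0.714, 1.26 and 0.398 CPM, the last on 13 reads. No group overlapped with another, and each step in the order was called. *Xcl1* was lower in CD4 than in CD8 T cells of B6 mice by −3.40 ± 0.22 (limma adjusted p = 2.61e-07), a 10.6-fold difference on the log2(CPM + 0.5) scale, and higher in CD4 than in CD8 T cells of FlipFlop mice by 1.5 ± 0.22 (limma adjusted p = 2.35e-04). The B6 difference was −3.96 with a pseudocount of 0.1 and −2.96 with a pseudocount of 1. The lineage effect was −2.45 (limma adjusted p = 9.86e-08) and the coreceptor effect −0.95 (limma adjusted p = 0.00419). FlipFlop CD8 exceeded B6 CD4 T cells by 0.96 (limma adjusted p = 0.00969), and FlipFlop CD4 lay below B6 CD8 T cells by −0.95 (limma adjusted p = 0.0210). The call of this last difference was lost when any of 4 libraries was left out (B6 CD8 replicate 1, 2 or 3, or FlipFlop CD4 replicate 2), with limma adjusted p up to 0.0937, and with a pseudocount of 0.1 (0.0629) or no eBayes (0.0631), and that of FlipFlop CD8 minus B6 CD4 in a fit of those 6 libraries alone (0.0506).

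*Ccl4*, the other chemokine, was highest in B6 CD8 T cells, at 2.77, 3.20 and 4.27 CPM. It was at 1.05, 1.30 and 1.56 CPM in FlipFlop CD4 and at 1.61, 0.496 and 1.31 CPM in FlipFlop CD8 libraries, which overlapped. In B6 CD4 libraries it was at 0.188, 0.0968 and 0.827 CPM, on 5, 3 and 27 reads. The B6 difference was −2.24 ± 0.32 (limma adjusted p = 2.24e-04), while the FlipFlop difference, 0.20 with a 95% interval of −0.51 to 0.91, was not called. The 2 differences were unequal, since the lineage effect of −1.22 was called (limma adjusted p = 0.00101). The coreceptor effect of −1.02 (limma adjusted p = 0.0231) lost its call without B6 CD8 replicate 2 or 3, FlipFlop CD4 replicate 1 or 2, or FlipFlop CD8 replicate 1 or 3 (limma adjusted p up to 0.0667). FlipFlop CD8 exceeded B6 CD4 T cells by 0.94 (limma adjusted p = 0.0496), a call kept only without B6 CD4 replicate 3 or FlipFlop CD8 replicate 2 among the 12 libraries left out in turn (limma adjusted p up to 0.155). That call was also lost with a pseudocount of 1, no eBayes or a fit of these 6 libraries alone (limma adjusted p = 0.0587, 0.102 and 0.130). FlipFlop CD4 minus B6 CD8 was −1.11 (limma adjusted p = 0.0580, not called). With a replicate block the limma adjusted p was 0.0223, but across strains the block joins libraries that share only a number, so this is not read as a call.

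*Ifng* rested on 1 to 176 reads per library, and its SD was above its mean in 2 groups (2.71 on 2.27 CPM in B6 CD4 and 0.282 on 0.234 CPM in FlipFlop CD4 libraries). B6 CD4 libraries held 0.825, 0.581 and 5.39 CPM, and FlipFlop CD8 libraries 3.25, 0.893 and 1.20 CPM. B6 CD8 libraries held 0.337, 0.160 and 0.497 CPM, and FlipFlop CD4 libraries 0.557, 0.109 and 0.0372 CPM. The 6 libraries of the first 2 groups lay above the other 6, at the closest with 0.581 against 0.557 CPM. Within strains the differences were not called, at 1.31 ± 0.56 in B6 (limma adjusted p = 0.116) and −1.56 ± 0.56 in FlipFlop mice (limma adjusted p = 0.0538). In FlipFlop mice the replicate numbers met the rule for pairing given below, which was not checked on libraries with different numbers. With a replicate block the FlipFlop difference was called (limma adjusted p = 0.00878), as it was with a pseudocount of 0.1 (−2.61, limma adjusted p = 0.0244) and without B6 CD4 replicate 1 or 2, which enter only the shared spread (0.0462 and 0.0425). The lineage effect was 1.44 (limma adjusted p = 0.0124, 95% interval 0.57 to 2.30). The filter left *Ifng* out when B6 CD4 replicate 3, FlipFlop CD8 replicate 1 or FlipFlop CD8 replicate 3 was removed, so its call was not tested without them, and the chosen filter favours a difference in this direction.

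*Il2*, left out by the filter, was below 1.2 CPM in every library. It was at 0.760, 0.403 and 0.675 CPM in B6 CD4 and at 0.706, 1.12 and 0.838 CPM in FlipFlop CD8 libraries. It was at 0.191, 0.335 and 0.310 CPM in B6 CD8 and at 0.139, 0.113 and 0.189 CPM in FlipFlop CD4 libraries. The first 2 groups lay above the others in 6 of 6 libraries, with means of 0.750 and 0.213 CPM, a ratio of 3.53 (two-sided exact permutation test, p = 0.00216, the smallest that 6 against 6 libraries allow). This permutation treated all libraries as exchangeable and ignored strain, age and replicate number. Within a strain the exact permutation test gave p = 0.1, which is the smallest that 3 against 3 allow. When all 12809 listed genes were fitted, the difference was 0.51 in B6 mice (limma adjusted p = 0.0481) and −1.09 in FlipFlop mice (limma adjusted p = 3.49e-04), and the lineage effect 0.80 (limma adjusted p = 1.85e-04).

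*Tgfb1* and *Il16*, both abundant, differed by small amounts. *Il16* was at 515 to 529 CPM in B6 CD4, 418 to 444 CPM in B6 CD8, 471 to 529 CPM in FlipFlop CD4 and 506 to 545 CPM in FlipFlop CD8 libraries. *Tgfb1* was at 144 to 173, 117 to 141, 140 to 158 and 150 to 165 CPM in the same order. B6 CD8 T cells were lowest in both, and the FlipFlop groups overlapped. In B6 mice CD4 T cells had 0.27 ± 0.06 more *Il16* (limma adjusted p = 0.00748) and 0.32 ± 0.09 more *Tgfb1* (limma adjusted p = 0.0177), changes of 1.21-fold and 1.25-fold. In FlipFlop mice the differences were −0.10 (limma adjusted p = 0.289) and −0.09 (limma adjusted p = 0.484), not called. Without the TMM factor both FlipFlop differences were larger in size and were called, where the median of all genes was −0.14. The lineage effects were 0.19 for *Il16* (limma adjusted p = 0.00618) and 0.21 for *Tgfb1* (limma adjusted p = 0.0198). For *Tgfb1* the B6 call was lost without B6 CD4 replicate 2, B6 CD8 replicate 2 or B6 CD8 replicate 3 (limma adjusted p up to 0.0834) and in a fit of those 6 libraries alone (0.0643), and the lineage call without B6 CD8 replicate 3 (0.0544).

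**Figure D3:**
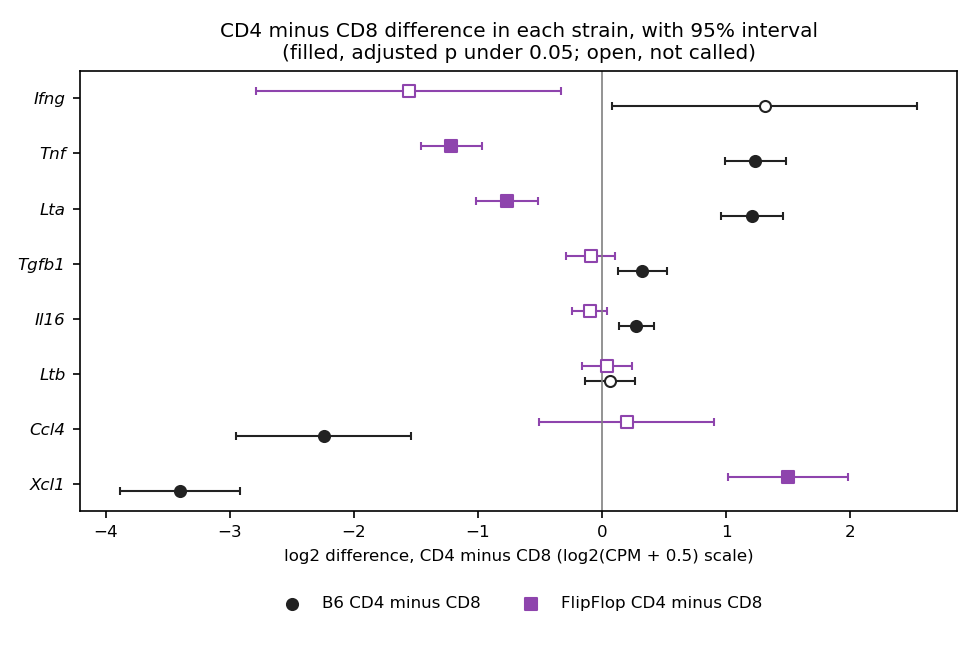
CD4 minus CD8 difference of the 8 tested transcripts in B6 (circles) and FlipFlop mice (squares) on the log2(CPM + 0.5) scale, with 95% intervals from limma. Filled symbols were called, and *Tnf*, *Lta* and *Xcl1* are filled with opposite signs in the 2 strains.

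Other cells and states move with these groups, and their part in the cytokine differences was not tested. The 5 regulatory T cell markers (*Foxp3*, *Ikzf2*, *Ctla4*, *Nrp1*, *Tnfrsf18*) summed to 286 to 353 CPM in B6 CD4 and 726 to 830 CPM in FlipFlop CD8 libraries, against 59.1 to 65.0 CPM in B6 CD8 and 64.6 to 69.3 CPM in FlipFlop CD4 libraries, and 5 of 5 were called for the lineage effect, beside 39.3% of all genes. Of 8 genes of recent T cell activation, 6 were higher and 1 (*Myc*) lower for the lineage effect, beside 19.9% and 19.4% of all genes, with sums of 492 to 536, 613 to 633, 341 to 365 and 396 to 417 CPM in the same order of groups. *Cd69*, the remaining gene, was not called (−0.06, limma adjusted p = 0.650). The 8 memory or effector markers summed to 184 to 239 CPM in B6 CD4 and 689 to 769 CPM in B6 CD8 libraries. FlipFlop CD4 libraries had 402 to 431 CPM of them, and FlipFlop CD8 replicate 1, the library of its group with the most *Ifng*, had 746 CPM beside 373 and 357 CPM in the other two. Of these 8 markers 4 were higher and 3 lower in B6 CD4 T cells, 1 higher and 4 lower in FlipFlop CD4 T cells, and 4 higher and 1 lower for the lineage effect, beside 25.4%, 31.3% and 39.3% of all genes called. *Nkg7*, a gene of cytotoxic granules, made 461 to 509 CPM of the sum in each B6 CD8 library, against 6.71 to 20.6 CPM in the B6 CD4 libraries. It made 293 to 297 CPM of the sum in FlipFlop CD4 and 10.1 to 67.3 CPM in FlipFlop CD8 libraries. Of the 6 myeloid markers 4 were listed, at sums of 18.8 to 28.3 CPM in B6 CD4, 14.4 to 25.7 CPM in FlipFlop CD8, 7.60 to 19.9 CPM in B6 CD8 and 5.80 to 8.06 CPM in FlipFlop CD4 libraries, and *Cd14* and *Adgre1* were not listed. Of the 4 listed, 1 was higher and 0 lower in B6 CD4 T cells, 0 higher and 3 lower in FlipFlop CD4 T cells, and 3 higher and 0 lower for the lineage effect, beside the same shares of all genes, near which the B6 count lies. Of the 5 NK cell markers only *Klrb1c* was listed, at 1.57 to 4.26 CPM in 3 groups and 10.2 to 11.8 CPM in FlipFlop CD8 T cells.

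**Figure D4:**
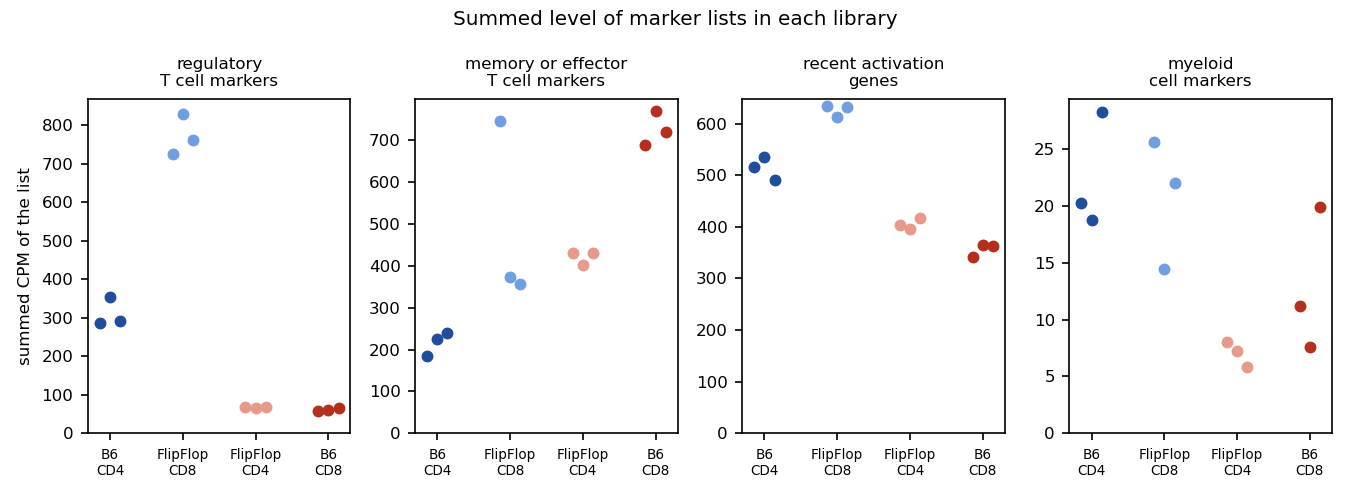
Summed CPM of 4 marker lists in each library, 1 point per library. Regulatory T cell and recent activation genes are higher in B6 CD4 and FlipFlop CD8 libraries, and FlipFlop CD8 replicate 1 stands at 746 CPM of memory or effector markers beside 373 and 357 CPM.

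Among 43 other cytokine and chemokine genes 27 were listed and 20 tested. In B6 mice 11 were higher and 1 lower in CD4 T cells, in FlipFlop mice 1 was higher and 11 lower, and for the lineage effect 12 were higher and 1 lower. Of all tested genes 14.6% were higher and 10.8% lower in B6 CD4, 15.3% higher and 16% lower in FlipFlop CD4 T cells, and 19.9% higher and 19.4% lower for the lineage effect. The median lineage effect of the 20 was 0.72, beside −0.03 over all tested genes. *Cd40lg*, the helper ligand for B cells, had the largest lineage effect of those called in both strains, at 5.87 in B6 (limma adjusted p = 2.50e-10) and −4.01 in FlipFlop mice (limma adjusted p = 7.66e-09). *Tnfsf11*, which encodes RANKL, stood at 3.50 and −3.71, and *Ebi3*, a subunit of IL-27 and IL-35, at 2.64 and −4.12. *Il21*, a cytokine of follicular helper cells, stood at 3.47 and −2.94. In B6 CD8 T cells *Cd40lg*, *Tnfsf11*, *Ebi3* and *Il21* were near the floor, with means of 0.816, 0.868, 0.237 and 0.0235 CPM. In FlipFlop CD4 T cells their means were 2.93, 1.41, 0.256 and 0.236 CPM. *Ebi3* and *Il21* thus passed the filter only through B6 CD4 and FlipFlop CD8 libraries. The sizes of these differences depend on the pseudocount. The T cell chemokine *Ccl5* was lower in B6 CD4 T cells (−2.90, limma adjusted p = 0.00705) and was not called in FlipFlop mice (−0.98, limma adjusted p = 0.318).

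**Figure D5:**
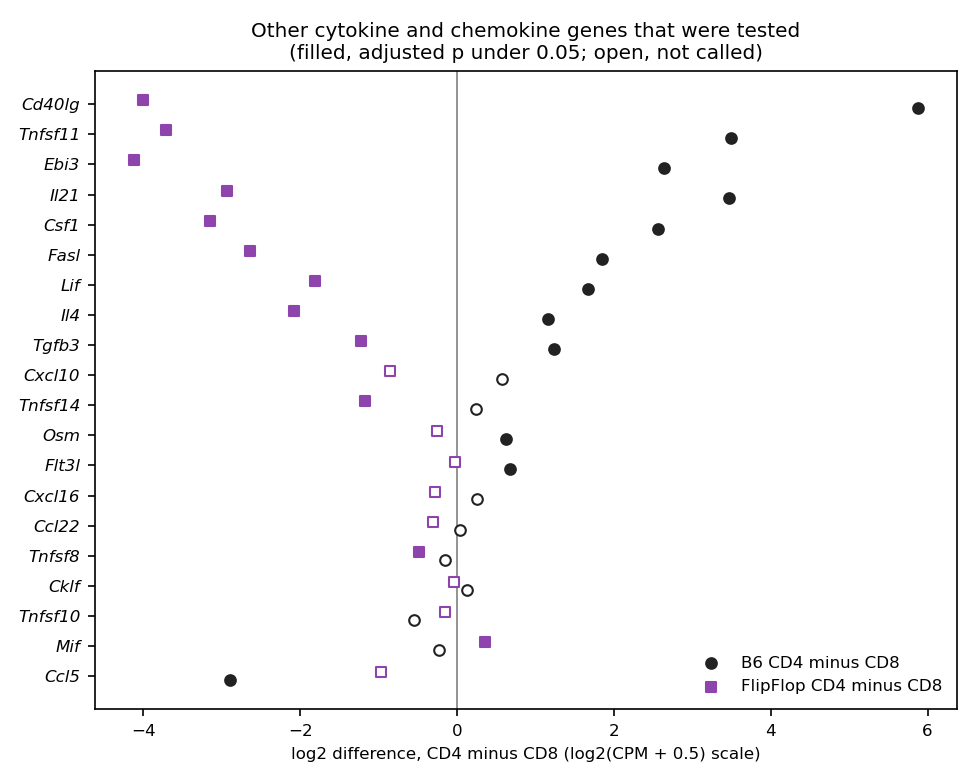
CD4 minus CD8 difference of the 20 other cytokine and chemokine genes that were tested, in B6 (circles) and FlipFlop mice (squares), on the log2(CPM + 0.5) scale, ordered by lineage effect. Filled symbols were called, and *Cd40lg* at the top stands at 5.87 in B6 and −4.01 in FlipFlop mice.

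Of 14 receptor genes for the members 12 were tested, and 5 were higher and 2 lower in B6 CD4 T cells, 0 higher and 4 lower in FlipFlop CD4 T cells, and 6 higher and 1 lower for the lineage effect. Over all tested genes 25.4%, 31.3% and 39.3% were called in these comparisons, so the count in FlipFlop mice was near that of genes at large. *Il2ra*, the high-affinity chain of the IL-2 receptor and a gene of regulatory T cells, stood at 4.91 in B6 and −5.84 in FlipFlop mice (limma adjusted p = 1.80e-09 and 4.55e-10), whereas *Il2rb*, the signalling chain shared with IL-15, was lower in CD4 T cells of both strains (−0.996 and −0.781). *Tgfbr1*, which encodes the type I receptor of TGF-β, stood at 0.55 and −1.15, and *Tgfbr3*, a coreceptor of TGF-β, at 1.26 in B6 mice and −0.04 (not called) in FlipFlop mice. For interferon-γ, *Ifngr1* was lower (−0.72) and *Ifngr2* higher (0.65) in B6 CD4 T cells, and neither was called in FlipFlop mice. *Xcr1* was not tested and *Ltbr*, the receptor of the lymphotoxin complex, was not listed.

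Of 24 genes for factors that induce cytokine genes or control their mRNA, all tested, 5 were higher and 5 lower in B6 CD4 T cells, 4 higher and 5 lower in FlipFlop CD4 T cells, and 9 higher and 4 lower for the lineage effect, beside the same 25.4%, 31.3% and 39.3% of all genes. *Eomes*, a T-box factor of cytotoxic cells, stood at −3.20 in B6 and 2.27 in FlipFlop mice, *Runx3* at −0.80 and 1.27, *Fosl2*, a member of the AP-1 family, at −1.02 and 0.82, and *Runx1* at 1.14 and −0.74, each called in both. *Tbx21*, the other T-box gene of this list, had a lower mean in CD4 T cells of both strains. Its means were 6.26 and 24.6 CPM in B6 CD4 and CD8, and 7.98 and 14.0 CPM in FlipFlop CD4 and CD8 libraries, which overlapped. Of 12 genes for processing and release 9 were tested, with 4 higher in B6 CD4 T cells, 1 higher and 4 lower in FlipFlop CD4 T cells, and 5 higher and 1 lower for the lineage effect, again beside 25.4%, 31.3% and 39.3% of all genes. *Lrrc32* and *Itgb8*, which act on latent TGF-β, stood at 5.42 and 2.68 in B6 and at −6.65 and −4.19 in FlipFlop mice. In B6 CD8 libraries they were near the floor, at 0.133 to 0.225 and 0.0331 to 0.240 CPM. So they were in FlipFlop CD4 libraries, at 0.0985 to 0.399 and 0.0725 to 0.223 CPM. Both thus passed the filter only through B6 CD4 and FlipFlop CD8 libraries, and the sizes of their differences depend on the pseudocount. The gene for the TNF sheddase, *Adam17*, was called in neither strain (−0.01 and −0.07).

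By the correlation of log2(CPM + 0.5) over the 12 libraries, which share groups and so are not independent, the genes most like *Tnf* were *Lgmn* (r = 0.987), *Fam210b* (0.986) and *Zbtb7b* (0.986). For *Lta* they were *Nr4a1* (0.985), *Tspan32* (0.983) and *Ptms* (0.983), and for *Xcl1* *Syde1* (0.979), *Slc35f2* (0.975) and AI506816 (0.973). *Ccl4* was most like *Chsy1* (0.932), *Xdh* (0.930) and *Cxcr6* (0.926). The nearest genes of *Ltb* were *Maf1* (0.962), *Tbc1d17* (0.959) and *U2af1* (0.943), those of *Il16* were *Hsdl1* (0.959), *Manba* (0.954) and *Cyp2d22* (0.950), and those of *Tgfb1* were *Msh6* (0.935), *Abhd12* (0.931) and *Ucp2* (0.931). *Ifng* was most like *Mkln1* (0.904), *Tmem135* (0.900) and *Ighg3* (0.891).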

How the data were processed

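Total RNA of electronically sorted LN T cells was made into low-input cDNA libraries and sequenced as paired-end reads. Reads were aligned to mm10 with STAR per the methods, whereas the submitters' processing notes name Trimmomatic and TopHat. The counting program, annotation and filter on low values are not given in the sources used here. The values are a normalized signal that the authors deposited as 1 table, CPM divided by a TMM factor, so columns do not sum to 1000000. All 12809 gene identifiers matched GENCODE M21. Reads per library were inferred from steps between values. Values under 100 CPM were whole reads (within 0.005) for 84.8% to 86.4%, too few for a count test. Values were fitted as log2(CPM + 0.5) with limma 3.58.1 (lmFit, eBayes with trend) in R 4.3.3, all 12 libraries, 1 mean per group and no block. Simulated data with known changes were used to test the fit.

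The members, gene lists and tests were chosen with earlier results of these data known. Named are the 9 members, up to 4 genes per related list called in both strains with opposite signs, receptors of the members, and the 3 genes with the highest correlation per member of at least 1 CPM. *Ccl5*, *Nkg7*, *Adam17*, *Myc*, *Cd69*, *Klrg1*, *Tbx21*, *Il4*, *Lif* and *Tgfb3* were named after their values were seen. Some genes of the related lists are counted but not reported by name here. Replicate numbers were checked by correlating deviations of same-numbered CD4 and CD8 libraries from their group means. These were 0.44, 0.27 and 0.51 in FlipFlop mice, which meets the rule set for pairing, that each exceed 0.1, and 0.18, 0.089 and 0.35 in B6 mice, which does not. Libraries with different numbers were not compared, and the main fit has no block in either strain. Alternatives were other pseudocounts, filters, scalings, fits and thresholds, a replicate block and each library left out. Promoter windows are from RefSeq (GRCm38.p6). Figures were drawn with matplotlib 3.10.9.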

Additional observations from a re-analysis of the deposited data

Results flagged for a closer look

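For 7 of the 8 tested members the CD4 minus CD8 difference itself differed between B6 and FlipFlop mice, by the interaction of strain and coreceptor in limma over all tested genes, beside 39.3% of genes called. On the log2 scale, the B6 difference minus the FlipFlop difference was −4.90 ± 0.31 (SE) for *Xcl1* (limma adjusted p = 9.86e-08) and −2.44 ± 0.46 for *Ccl4* (limma adjusted p = 0.00101). It was 2.45 ± 0.16 for *Tnf* (limma adjusted p = 1.07e-07), 1.97 ± 0.16 for *Lta* (limma adjusted p = 9.22e-07) and 2.87 ± 0.80 for *Ifng* (limma adjusted p = 0.0124). The abundant *Tgfb1* had 0.42 ± 0.13 (limma adjusted p = 0.0198) and *Il16* 0.37 ± 0.09 (limma adjusted p = 0.00618). Both CD4 minus CD8 differences were called, with opposite signs, for *Tnf*, *Lta* and *Xcl1*. For *Ccl4*, *Tgfb1* and *Il16* only the B6 difference was called, and for *Ifng* neither was. *Ifng* was tested only because 3 libraries of B6 CD4 and FlipFlop CD8 T cells, the groups in which it was high, reached 1 CPM. Without the TMM factor the FlipFlop differences of *Ifng* (−1.68, limma adjusted p = 0.0387), *Tgfb1* (−0.27, limma adjusted p = 0.0419) and *Il16* (−0.27, limma adjusted p = 0.00520) were called too, where the median of all genes was −0.14, and with a replicate block *Ifng* was called in both strains. The B6 replicate numbers did not meet the rule for pairing, so the block does not have that basis there.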

How the results depend on the processing

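Leaving out 1 library at a time, the number of members called ran from 5 to 6 (B6 CD4 minus B6 CD8), 3 to 4 (FlipFlop CD4 minus FlipFlop CD8), 1 to 2 (FlipFlop CD8 minus B6 CD4), 1 to 4 (FlipFlop CD4 minus B6 CD8), 6 to 7 (lineage effect) and 1 to 2 (coreceptor effect). The numbers of genes called ran from 2245 to 3198, 2698 to 4411, 1527 to 3745, 490 to 1566, 3918 to 5219 and 352 to 605 in that order, with 1527 without FlipFlop CD8 replicate 3, 490 without B6 CD8 replicate 2, 1566 without B6 CD4 replicate 1 and 352 without FlipFlop CD8 replicate 2. With the limits of more than 5-fold and p under 0.0001, the members called were 1, 0, 0, 0, 1 and 0 and the genes 180, 250, 47, 55, 187 and 2. Without the TMM factor 6 of 8 members and 3767 of 11611 genes were called between the FlipFlop groups, and the median difference of all genes moved from 0.04 to −0.14 there and from −0.0079 to 0.15 for FlipFlop CD8 minus B6 CD4. The share of calls that were higher moved from 57.3% to 69.7%, 49.0% to 20.8%, 47.8% to 83.9%, 52.6% to 61.8%, 50.6% to 75.6% and 31.1% to 16.2%. For FlipFlop CD8 minus B6 CD4, 1 member was called with a pseudocount of 1, a mean of at least 5 CPM or no eBayes, and 0 members and 1500 genes in a fit of 6 libraries. For FlipFlop CD4 minus B6 CD8, a pseudocount of 0.1 left 1 member. For the coreceptor effect 1 member was called without eBayes and with a mean of at least 5 CPM, where 301 genes were called. Without the TMM factor *Ltb* turned to −0.14 (FlipFlop CD4 minus FlipFlop CD8), 0.0066 (FlipFlop CD8 minus B6 CD4), 0.00052 (FlipFlop CD4 minus B6 CD8) and −0.0031 (coreceptor effect), *Tgfb1* to 0.13 (FlipFlop CD8 minus B6 CD4) and *Tnf* to −0.0434 (coreceptor effect), and *Tnf* to −0.0012 there with median-of-ratios rescaling. *Ifng* turned to −0.0202 in FlipFlop CD8 minus B6 CD4 with a pseudocount of 1. None of these values was called in either form.

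Single libraries left out turned uncalled values only, with lowest and highest values of −0.0405 to 0.14 (*Ltb*, B6 CD4 minus B6 CD8), −0.0024 to 0.0710 and −0.12 to 0.42 (*Ltb* and *Ccl4*, FlipFlop CD4 minus FlipFlop CD8), −0.43 to 0.31 and −0.12 to 0.0138 (*Ifng* and *Tgfb1*, FlipFlop CD8 minus B6 CD4), −0.0797 to 0.16 (*Tnf*, FlipFlop CD4 minus B6 CD8), −0.0398 to 0.0506 (*Ltb*, lineage effect), and −0.27 to 0.10, −0.0617 to 0.0591 and −0.00076 to 0.0896 (*Ifng*, *Tnf* and *Ltb*, coreceptor effect). With a replicate block the counts of genes were 3475, 4221, 4022, 1142, 5162 and 954. Among members the block brought *Ifng* in B6 (limma adjusted p = 0.0226) and FlipFlop mice (0.00878) and *Ccl4* in FlipFlop CD4 minus B6 CD8 (0.0223) under 0.05, and changed no other call. The B6 numbers did not meet the rule for pairing, and across strains libraries share only a number. Of these values, only that of FlipFlop mice rests on numbers that met the rule. Of 962 member values under alternatives, 889 kept their direction and side of the threshold, 32 lost and 19 gained a call and 22 changed sign. The cause of these changes was not tested. *Il2* rested on 3.11 to 33.8 and *Ifng* on 1 to 176 reads per library, which limits their precision.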
